A study of Drosophila melanogaster with 12 samples.

Results

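The 10 genes described here encode subunits of the SWI/SNF chromatin remodeling complexes BAP and PBAP of Drosophila melanogaster: brm, mor, Snr1, Bap55, Bap60, Bap111, osa, Bap170, polybromo and e(y)3. They were chosen by name, as known components of the complexes, and were matched by FlyBase symbol to the gene identifiers of the data. All 10 were among the 12986 genes of the RNA-seq table and among the 13924 genes of the ChIP-seq table. S2 cells, an established embryonic cell line with features of plasmatocytes (macrophage-like blood cells), were measured in 4 RNA-seq groups of 2 biological replicates each. The recBRM-V5 cells carried a plasmid for V5-tagged wild-type BRM and received dsRNA against BRM. The recBRM-K804R-V5 cells carried a plasmid for the ATPase mutant of BRM and received the same dsRNA. The BRM-depleted cells also received dsRNA against BRM, without a BRM plasmid, and the control cells received dsRNA against GFP, likewise without a BRM plasmid. All dsRNA treatments lasted 48 h. Both recombinant lines were stably transfected, with BRM under the metallothionein promoter of the pMT vector, and were induced with copper sulfate during the final 24 h. The labels give an empty plasmid for the BRM-depleted and control cells, whereas the methods call them control S2 cells, and neither states copper for them. Cell line, plasmid and copper therefore cannot be told apart in any comparison of a recombinant line with cells without a BRM plasmid. Binding was measured by ChIP-seq of endogenous BRM in 2 replicates, each with an immunoprecipitate (IP) and an Input. The labels give the ChIP antibody as monoclonal and made against the fly protein, whereas the methods list a rabbit antibody and one made against rat BRG1 and tie neither to the ChIP-seq.

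SWI/SNF complexes use the energy of ATP hydrolysis to slide or evict nucleosomes and thereby alter access to DNA. BRM is the only ATPase of the family in the fly, and it shares a core of subunits between BAP and PBAP. The OSA protein defines BAP, whereas BAP170, Polybromo and SAYP, the product of e(y)3, define PBAP. The catalytic subunit is held in the complex by the scaffold protein Moira, encoded by mor.

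The counts on genes summed to between 6600562 and 10287294 per library, and 8165 genes passed the filter on low counts, all 10 subunit genes included. Levels are given as CPM, the counts divided by the library size after TMM scaling, and differences as log2 fold changes from edgeR's quasi-likelihood test on all 8 libraries. Benjamini-Hochberg adjusted p-values cover all 8165 genes, and a gene was called at an adjusted p under 0.05. Nothing beyond the word biological describes the replicates, so that the p-values measure the spread between these samples. All 8 plasmatocyte markers examined were detected in every library, with a summed level of 3317 to 5126 CPM. Single markers varied widely between libraries, NimC1 from 1.18 to 376 CPM, He from 8.19 to 310 CPM and Hml from 29.7 to 992 CPM, and their part in the results was not tested. Of the 4 markers of other cell types that were found, the glial gene repo reached at most 0.28 CPM. The flight muscle actin Act88F reached at most 0.122 CPM and the muscle myosin Mhc 0.422 to 4.26 CPM, whereas the neuronal gene elav had 28.0 to 100 CPM. The germline markers vas and nos were not matched to the data.

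The brm gene (FBgn0000212), the target of the dsRNA and the insert of both plasmids, set the 4 groups apart. It had 16623 and 24875 CPM in recBRM-V5 cells, 2117 and 2004 CPM in recBRM-K804R-V5 cells, 176 and 174 CPM in BRM-depleted cells, and 433 and 445 CPM in control cells. No library of any group reached into the range of another. The reads of the endogenous gene and of the plasmids are joined in these counts. In recBRM-V5 cells brm alone took 1.59% and 2.39% of all counts, against 0.0449% and 0.0448% in control cells.

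Against the control, the brm level rose 47.2-fold in recBRM-V5 cells (log2 fold change 5.56, SE 0.31, adjusted p = 0.000192). It rose 4.69-fold in recBRM-K804R-V5 cells (log2 fold change 2.23, SE 0.27, adjusted p = 0.00231). Of the 8165 genes, 18.2% were called in recBRM-V5 cells, 10.9% as higher, and 10.5% in recBRM-K804R-V5 cells, 6.34% as higher. The excess over BRM-depleted cells, which received the same dsRNA, was 118-fold in recBRM-V5 cells (adjusted p = 0.000122). For recBRM-K804R-V5 cells the excess was 11.7-fold (adjusted p = 0.000579). Beside these, 11.4% and 6.87% of all tested genes were called as higher. The recombinant lines themselves were not matched in brm RNA. The level in recBRM-V5 cells was 10.1-fold that in recBRM-K804R-V5 cells (95% interval 6.41 to 15.8, adjusted p = 0.00126), and 4.74% of the tested genes were called between these lines, 2.51% as higher. Every difference between a recombinant line and another line at the other subunit genes therefore comes with this difference in brm level, and its part in them was not tested.

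In BRM-depleted cells brm RNA was 0.399-fold that in control cells (95% interval 0.262 to 0.609), with both libraries below both control libraries. The fitted log2 fold change was -1.32 (SE 0.26), and brm ranked at 17 of 8165 genes by its unadjusted p. Its adjusted p was 0.468, so that the targeted gene was not called, and neither was any other gene (0% called). At an unadjusted p under 0.05, 379 genes (4.64%) passed, brm being the only subunit gene among them. DESeq2 called 20 genes, brm included (adjusted p = 1.39e-05), and limma-voom called 0. With edgeR, brm was called when only the 4 libraries compared were fitted (adjusted p = 0.00645) or without the filter on low counts (adjusted p = 0.00364).

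The mutation that separates the plasmids lies in the nucleotide-binding part of the ATPase domain, and the wild-type reference sequence is shown to mark the residue concerned. The substitution of the mutant protein is K804R, and this position, counted from the start codon, is a lysine with the codon AAA in 3 of the 6 annotated BRM isoforms, among them the longest with 1658 residues. It lies in a coding exon at chr3L:15973015-15973017 on the minus strand of the BDGP6 assembly. The 57 bases around it, at chr3L:15972988-15973044, are given 5′ to 3′ on the coding strand with the lysine codon in capitals.
brm K804 codon: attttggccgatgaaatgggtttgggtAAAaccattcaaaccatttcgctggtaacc
The counts per gene do not resolve this position, and how the plasmid codes the mutant residue was not analysed here.

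**Figure D1:**
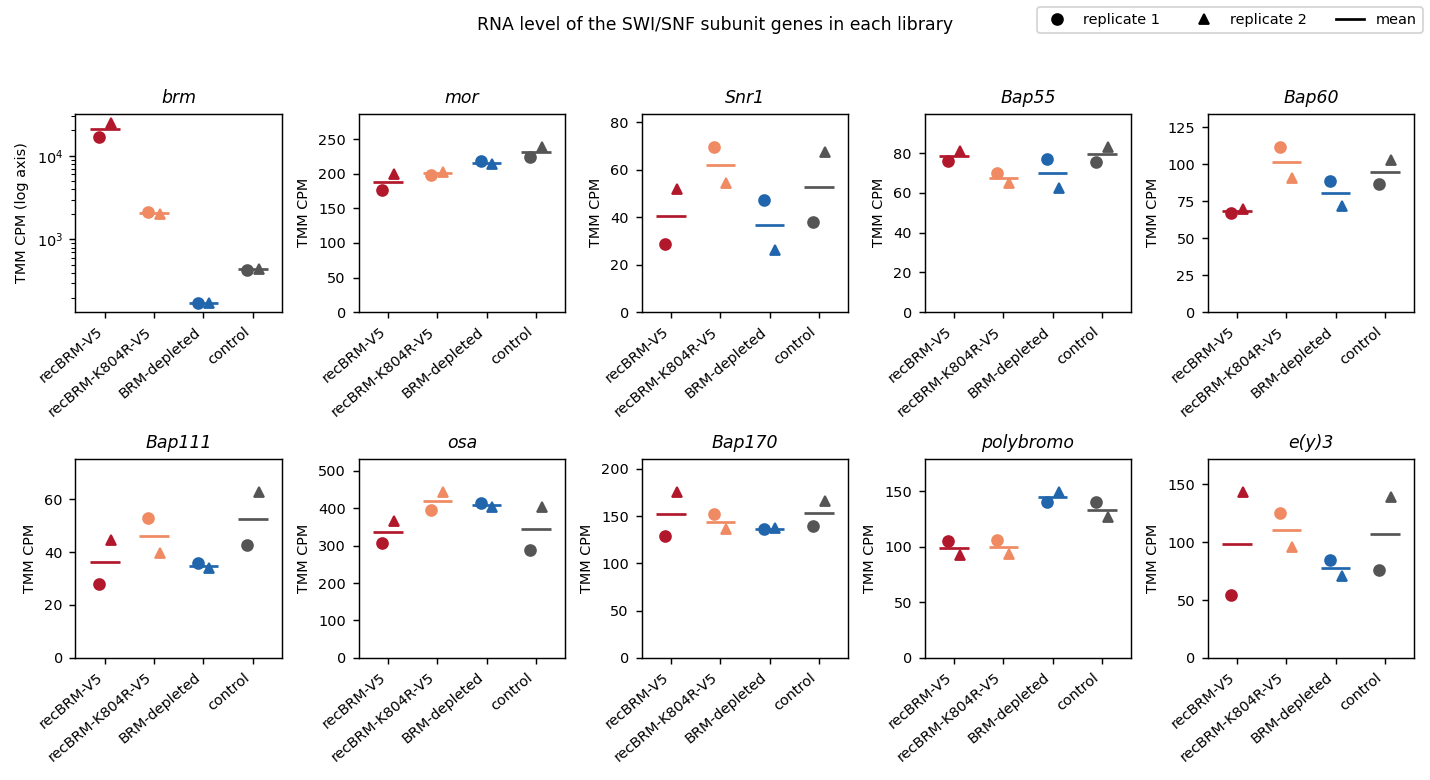
TMM-scaled CPM of the 10 subunit genes in each of the 8 RNA-seq libraries, 1 panel per gene, with recBRM-V5, recBRM-K804R-V5, BRM-depleted and control cells from left to right. Circles are replicate 1, triangles replicate 2 and bars the mean of both. The brm panel has a log axis and spans 174 to 24875 CPM, whereas the other panels start at 0, and the polybromo panel shows both recombinant lines, at 92.8 to 106 CPM, below both lines without a BRM plasmid, at 127 to 149 CPM.

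None of the other 9 subunit genes was called against control cells in any line. In BRM-depleted cells their log2 fold changes lay between -0.59 for Bap111 and 0.25 for osa, with a median of -0.19, against a median of -0.011 over all tested genes. In recBRM-V5 cells all 9 were below 0, between -0.54 for Bap111 and -0.0099 for Bap170, with a median of -0.30 against 0.0038 over all genes. In recBRM-K804R-V5 cells they lay between -0.42 for polybromo and 0.28 for osa, with a median of -0.089 against 0.010 over all genes. Without the first recBRM-V5 replicate 4 of the 9, and without the second control replicate 5 of the 9, turned positive in recBRM-V5 cells, so that the common sign rested on single libraries. The 3 comparisons share the control libraries.

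The libraries of 6 of the 10 genes did not overlap between BRM-depleted and control cells. The levels of brm, mor, Bap111 and Bap170 were lower in both BRM-depleted libraries, which held for 22.1% of all tested genes, and those of osa and polybromo were higher, which held for 22.0%. In recBRM-V5 cells mor, Bap60 and polybromo were below both control libraries (26.1% of all genes) and brm was above (27.4%). In recBRM-K804R-V5 cells mor, Bap55 and polybromo were below (26.5%) and brm was above (28.2%). Against the BRM-depleted libraries, those of recBRM-V5 cells were lower for mor, osa, Bap60 and polybromo (28.9%) and higher for brm (31.4%). Those of recBRM-K804R-V5 cells were lower for mor and polybromo (30.9%) and higher for brm, Snr1, Bap60, Bap111 and e(y)3 (37.1%). Between the recombinant lines, the recBRM-V5 libraries were lower for osa, Snr1 and Bap60 (20.6%) and higher for brm and Bap55 (21.0%).

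Among the shared subunits, mor (FBgn0002783, 3R) had 176 and 200 CPM in recBRM-V5 cells, 198 and 203 CPM in recBRM-K804R-V5 cells, 218 and 214 CPM in BRM-depleted cells, and 224 and 239 CPM in control cells. Both libraries of each line thus lay below both control libraries. None of these differences was called, with log2 fold changes of -0.30 in recBRM-V5 cells (95% interval -0.61 to 0.0066, adjusted p = 0.168), -0.21 in recBRM-K804R-V5 cells (adjusted p = 0.393) and -0.10 in BRM-depleted cells (adjusted p = 0.887). The interval in BRM-depleted cells runs from 0.753-fold to 1.15-fold, so that the scaffold RNA of the depleted cells differed by less than the fall of brm itself.

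Bap60 (FBgn0025463, X), a core subunit related to the mammalian BAF60 proteins, was lowest in recBRM-V5 cells. It had 66.9 and 70.1 CPM there, 112 and 91.0 CPM in recBRM-K804R-V5 cells, 89.0 and 71.7 CPM in BRM-depleted cells, and 86.8 and 103 CPM in control cells. The recBRM-V5 libraries were below those of every other line. The log2 fold change was -0.47 against control cells (SE 0.17, adjusted p = 0.106) and -0.57 against recBRM-K804R-V5 cells (SE 0.17, adjusted p = 0.124), and neither was called. Bap55 (FBgn0025716, 2R), an actin-related protein, had 65.2 to 70.2 CPM in recBRM-K804R-V5 cells, just below its 75.7 to 83.3 CPM in control cells (log2 fold change -0.23, adjusted p = 0.410), whereas its libraries of the other lines overlapped the control range.

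Snr1 (FBgn0011715, 3R), the fly homolog of yeast SNF5, differed as much between replicates as between lines. It had 28.8 and 51.9 CPM in recBRM-V5 cells, 69.7 and 54.3 CPM in recBRM-K804R-V5 cells, 47.3 and 26.0 CPM in BRM-depleted cells, and 38.1 and 67.3 CPM in control cells. Only the recBRM-K804R-V5 and BRM-depleted libraries, and those of the 2 recombinant lines, did not overlap. The log2 fold change between recBRM-K804R-V5 and BRM-depleted cells was 0.76 (95% interval -0.15 to 1.68, adjusted p = 0.241), the largest of the 9 genes in size in any comparison, and was not called. Leaving out each library in turn gave 0.39 to 1.25. It was called without the filter on low counts (adjusted p = 0.0402). Bap111 (FBgn0030093, X), an HMG-box protein of the core, had 28.0 and 44.5 CPM in recBRM-V5 cells, 52.7 and 39.6 CPM in recBRM-K804R-V5 cells, 35.7 and 33.9 CPM in BRM-depleted cells, and 42.7 and 62.5 CPM in control cells. Its log2 fold change in BRM-depleted cells, -0.59 (SE 0.28, adjusted p = 0.869), was the lowest of the 9 genes but had an interval of -1.24 to 0.046, and leaving out each library in turn gave -0.84 to -0.29.

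The BAP-specific gene osa (FBgn0261885, 3R) encodes an ARID-domain protein. It had 308 and 366 CPM in recBRM-V5 cells, 395 and 442 CPM in recBRM-K804R-V5 cells, 415 and 403 CPM in BRM-depleted cells, and 288 and 402 CPM in control cells. The depleted libraries were above both control libraries, the lower of them only just, and the log2 fold change of 0.25 (SE 0.20, adjusted p = 0.869) was not called. Neither was the difference of -0.31 between recBRM-V5 and recBRM-K804R-V5 cells (adjusted p = 0.452), although those libraries did not overlap.

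Among the PBAP-specific genes, polybromo (FBgn0039227, 3R), which encodes the subunit with several bromodomains, was the only member besides brm to be called in any comparison. It had 105 and 92.8 CPM in recBRM-V5 cells, 106 and 94.0 CPM in recBRM-K804R-V5 cells, 140 and 149 CPM in BRM-depleted cells, and 140 and 127 CPM in control cells. All 4 libraries of the recombinant lines were below all 4 libraries without a BRM plasmid. For single pairs of these lines, 26.1% to 30.9% of all tested genes were lower without overlap. The share of genes that separate all 4 libraries from the other 4 was not counted. Against BRM-depleted cells polybromo fell to 0.683-fold in recBRM-V5 cells (log2 fold change -0.55, SE 0.14, adjusted p = 0.0291) and to 0.691-fold in recBRM-K804R-V5 cells (log2 fold change -0.53, SE 0.14, adjusted p = 0.0458). In these comparisons 19.5% and 11.7% of the tested genes were called, 8.10% and 4.85% as lower. Against control cells polybromo had a log2 fold change of -0.44 with recBRM-V5 (95% interval -0.76 to -0.11, adjusted p = 0.0674), which was not called. Nor was its change of -0.42 in recBRM-K804R-V5 cells (95% interval -0.74 to -0.10, adjusted p = 0.101).

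The fall of polybromo was of like size in both recombinant lines, and both calls were made against the same BRM-depleted libraries. The brm levels of the recombinant lines differed 10.1-fold, and the part of brm level in the fall was not tested. Between recBRM-V5 and recBRM-K804R-V5 cells the log2 difference was -0.017 (95% interval -0.34 to 0.30, adjusted p = 0.966), which spans 0.791-fold to 1.24-fold. Leaving out 1 library ended the calls against BRM-depleted cells in 7 of 8 fits. For recBRM-V5 cells polybromo was still called without recBRM-V5 replicate 1 (adjusted p = 0.0209), whereas the adjusted p was 0.124 without BRM-depleted replicate 1, 0.190 without BRM-depleted replicate 2 and 0.0947 without recBRM-V5 replicate 2. For recBRM-K804R-V5 cells it was 0.179 and 0.293 without BRM-depleted replicate 1 or 2, and 0.104 and 0.182 without recBRM-K804R-V5 replicate 1 or 2. The log2 fold change itself stayed between -0.64 and -0.45 over the 8 fits. The call was also lost for recBRM-V5 cells when only the 4 libraries compared were fitted (adjusted p = 0.0722), and for recBRM-K804R-V5 cells with the replicate number as a block (adjusted p = 0.0630).

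The other PBAP-specific genes were not called in any comparison. Bap170 (FBgn0042085, 2R), an ARID-domain protein, ranged from 129 to 175 CPM over all 8 libraries and had log2 fold changes against control cells of -0.0099 in recBRM-V5 cells, -0.089 in recBRM-K804R-V5 cells and -0.16 in BRM-depleted cells. The e(y)3 gene (FBgn0087008, X), whose product SAYP carries PHD fingers, had 54.7 and 143 CPM in recBRM-V5 cells, 125 and 95.6 CPM in recBRM-K804R-V5 cells, 84.8 and 70.8 CPM in BRM-depleted cells, and 75.7 and 139 CPM in control cells. Its widest gap, 1.39 on the log2 scale, was between the replicates of recBRM-V5 cells and exceeded the replicate gap of 95.1% of the tested genes there. The interval of its log2 fold change in BRM-depleted cells, -1.47 to 0.54, reaches past the fall of brm in size, as does that of Snr1, so that a fall of that size lay within both intervals.

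**Figure D2:**
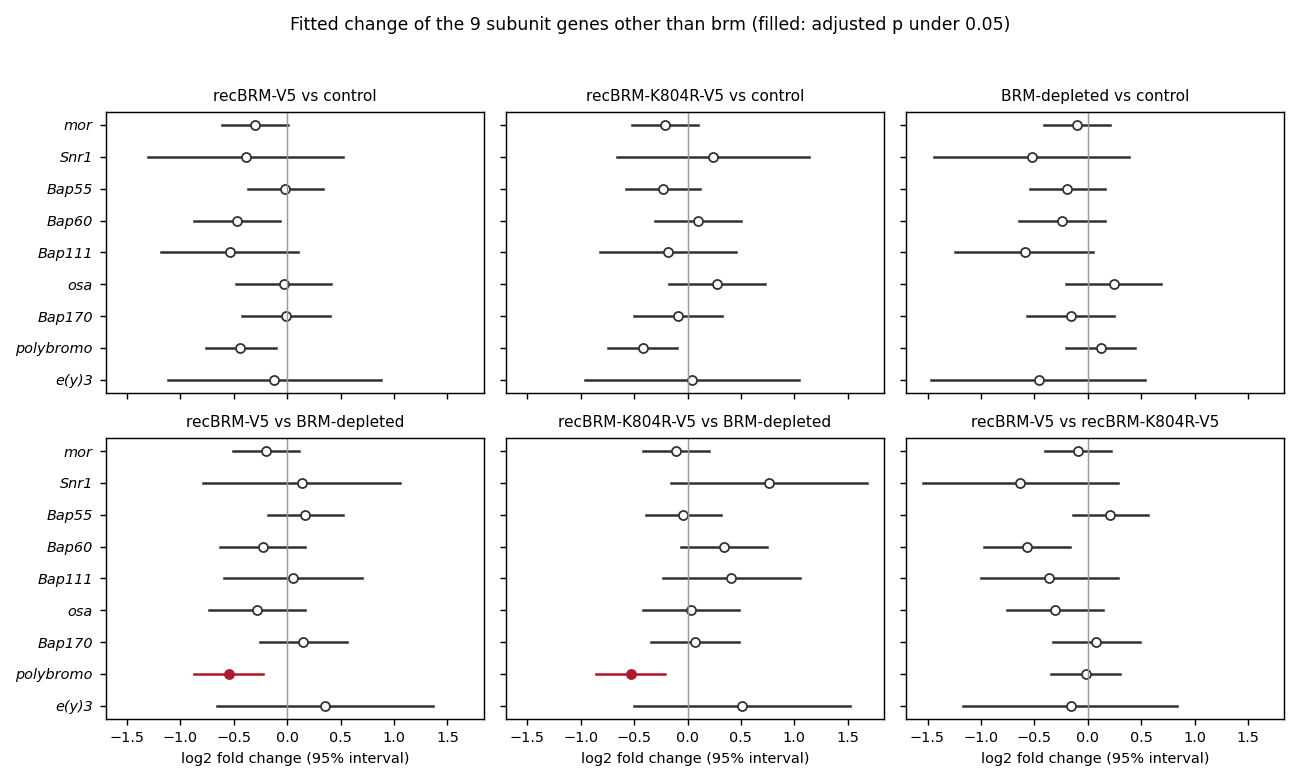
Fitted log2 fold changes (points) with 95% intervals (lines) of the 9 subunit genes other than brm in the 6 comparisons, the first-named line over the second. Filled red points are called at an adjusted p under 0.05, which applies only to polybromo against BRM-depleted cells, at -0.55 in recBRM-V5 and -0.53 in recBRM-K804R-V5 cells, whereas the intervals of Snr1 and e(y)3 are the widest.

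The replicates of a line differed in the same direction for most subunit genes, a pattern seen only after the values were inspected. Of the 10 members, 9 were higher in replicate 2 in recBRM-V5 cells and 9 in control cells, whereas 8 were lower in replicate 2 in recBRM-K804R-V5 cells and 8 in BRM-depleted cells. The genes brm, Snr1, Bap55, Bap60, Bap111 and e(y)3 followed these directions in all 4 lines. Snr1, Bap111 and e(y)3 had the widest gaps in recBRM-V5 and control cells, by 0.85, 0.67 and 1.39 on the log2 scale in recBRM-V5 cells and by 0.82, 0.55 and 0.88 in control cells. In recBRM-K804R-V5 cells they were lower in replicate 2 by 0.36, 0.41 and 0.39, and in BRM-depleted cells by 0.86, 0.075 and 0.26. The median replicate gap of all tested genes was 0.39 in recBRM-V5 cells, 0.24 in recBRM-K804R-V5 cells, 0.17 in BRM-depleted cells and 0.24 in control cells. Leaving out 1 library turned the sign of several fold changes of these 3 genes. The pattern was not particular to the subunit genes. Over all tested genes, same-numbered replicates deviated together between recBRM-V5 and control cells (r = 0.66). Between BRM-depleted and control cells they deviated in opposite directions (r = -0.354). The share of all genes with each direction was not counted.

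Per length, brm was the most abundant subunit RNA in control cells. Dividing the CPM by the kilobases of merged exons gave 78.5 ± 1.56 RPKM for brm, 58.1 ± 2.70 for mor, 54.0 ± 3.62 for Bap55, 49.1 ± 5.96 for Bap60 and 39.5 ± 15.5 for Snr1 (SD, n = 2 each). The scale went on with 32.2 ± 7.55 RPKM for osa, 28.8 ± 3.40 for Bap170, 26.1 ± 1.79 for polybromo, 19.7 ± 5.23 for Bap111 and 11.7 ± 4.89 for e(y)3 (SD, n = 2 each). In this order brm was clear of mor, polybromo was clear of Bap111 and Bap111 was clear of e(y)3, while the ranges of all other neighbours overlapped. Core subunits thus held the 5 highest places, with Bap111 as the exception at rank 9. In BRM-depleted cells brm fell to 31.3 RPKM and to rank 5, below mor, Bap55, Bap60 and osa.

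The excess of brm over its partners was set against the core. The median RPKM of the other core genes (mor, Snr1, Bap55, Bap60 and Bap111) was taken in each library. The ratio of brm RPKM to this median was 86.0 and 114 in recBRM-V5 cells and 7.63 and 8.09 in recBRM-K804R-V5 cells. It was 0.686 and 0.842 in BRM-depleted cells, and 1.73 and 1.49 in control cells. The RNA of the catalytic subunit thus lay below the median of the other core genes in BRM-depleted cells and above it in the other lines. The balance of the complex-specific genes moved far less. The log2 ratio of osa RPKM to the mean RPKM of the 3 PBAP-specific genes was 0.77 and 0.62 in recBRM-V5 cells, 0.81 and 1.18 in recBRM-K804R-V5 cells, 0.90 and 0.85 in BRM-depleted cells, and 0.38 and 0.66 in control cells. It was higher in both libraries of the recBRM-K804R-V5 and BRM-depleted cells than in control cells, whereas recBRM-V5 cells overlapped them. These ratios are descriptions without a test.

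**Figure D3:**
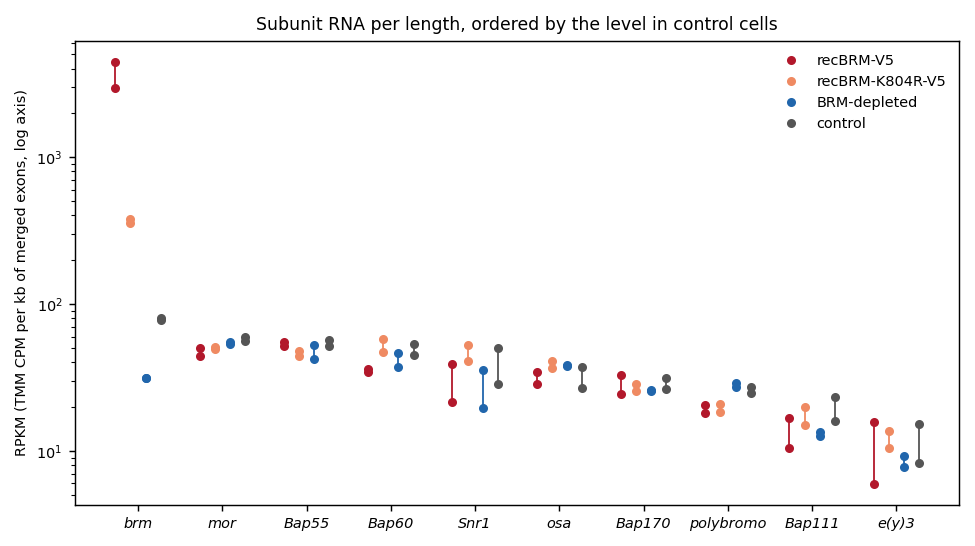
RPKM of the 10 subunit genes on a log axis, ordered by the mean in control cells, with recBRM-V5, recBRM-K804R-V5, BRM-depleted and control cells from left to right within each gene. Points are libraries and lines join the 2 replicates. The brm gene spans 31.2 to 4444 RPKM over the lines, whereas the partner genes keep between 5.98 and 60.0 RPKM.

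Further genes of the same machinery were examined as lists chosen with earlier results known. Of 3 other genes assigned to SWI/SNF complexes (Act5C, CG7154 and CG11873, the last pair being related to mammalian BRD7/9 and BICRA), none was called in any of the 6 comparisons. Over all genes, 0% to 19.5% were called in these comparisons. Of 9 other remodeling ATPases tested, 1 rose and 1 fell in recBRM-V5 cells against control cells, beside 10.9% and 7.24% called in these directions over all genes. These were Hel89B, the fly homolog of Mot1 (log2 fold change 0.70, adjusted p = 0.0152), and Chd3 (log2 fold change -0.78, adjusted p = 0.0325). None of the 9 was called in recBRM-K804R-V5 cells or in BRM-depleted cells against control cells, beside 10.5% and 0% of all genes.

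Of 13 other trithorax group genes tested, 5 fell in recBRM-V5 cells against control cells and none rose, beside 7.24% lower and 10.9% higher over all genes. They were trr (log2 fold change -0.98, adjusted p = 0.0148) and tna (log2 fold change -0.68, adjusted p = 0.0180), followed by z (-0.63), skd (-0.62) and fs(1)h (-0.58). The product of trr is a histone methyltransferase, that of skd a Mediator subunit and that of fs(1)h a BET bromodomain protein. None of the 13 was called in recBRM-K804R-V5 cells or in BRM-depleted cells against control cells, beside 10.5% and 0% of all genes. In recBRM-K804R-V5 cells the log2 fold changes of these 5 were -0.69 for trr, -0.57 for z, -0.32 for skd and -0.24 for fs(1)h, but 0.27 for tna. The difference between the recombinant lines was called for tna alone, with -0.95 (adjusted p = 0.0130, beside 2.23% of all genes called as lower), and missing calls elsewhere do not show that the lines were alike.

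The sign of copper accompanied both recombinant lines. MtnA, which encodes a metal-binding metallothionein, averaged 8461 ± 2408 CPM in recBRM-V5 cells, 6329 ± 1548 CPM in recBRM-K804R-V5 cells, 205 ± 13.3 CPM in BRM-depleted cells and 206 ± 24.8 CPM in control cells (SD, n = 2 each). MtnA alone of the family was well above 0 in every line and rose in both recombinant lines against both lines without a BRM plasmid (adjusted p of 0.000239 to 0.000369). MtnB, MtnD and MtnE averaged 20.1 to 107 CPM in the recombinant lines and at most 0.0527 CPM in the others, so that they passed the filter only through the recombinant lines, and MtnC did not pass it. The part of copper in the level of polybromo, which separates the same libraries, was not tested.

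By its profile over the 8 libraries, brm was most like CG31717, CG9812, Naam, SMSr and Slc45-1. The Pearson correlation of log2(CPM + 0.5) was 0.988 to 0.994, and the libraries share the plasmid and copper difference. Naam, for example, averaged 140 CPM in recBRM-V5 cells, 61.7 CPM in recBRM-K804R-V5 cells, 27.7 CPM in BRM-depleted cells and 36.4 CPM in control cells. Among the partners, polybromo had the lowest correlation with brm, -0.873, and mor had -0.761, whereas the remaining 7 lay between -0.395 and 0.266.

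The binding of endogenous BRM to the subunit genes was taken from the ChIP-seq coverage, averaged by the authors over each gene and short flanks. The IP signal was divided by the Input signal of the same replicate, and a mean ratio of at least 1.1 was required for a gene to count as bound. Of the 13557 genes whose Input reached a signal of 0.5, 15.6% reached this level, beside 4 of the 10 subunit genes. These were brm, Snr1, osa and Bap111. The core genes mor, Bap55 and Bap60 and the 3 PBAP-specific genes did not reach it. So few genes do not set the complexes apart. Replicate 1 alone placed 3 of the 10 at or above 1.1 (15.9% of all genes), and replicate 2 alone placed 2 (25.8%). The mean ratio of the members had a median of 0.992, beside 0.962 over all genes. The share over all genes depended on the scale. With the ratios divided by their median, 4045 of the 13557 genes reached 1.1 in place of 2117, and still 4 of the 10 members. At a mean ratio of at least 1.0 it was 5196 genes and 5 members. Reads per library do not come with the signal, and counting error cannot be stated.

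The brm locus had the highest IP/Input of all genes in replicate 1 and no excess in replicate 2. Its signal was 10.4 in the IP and 2.98 in the Input of replicate 1, and 2.45 in the IP and 2.46 in the Input of replicate 2. The ratios were 3.49 at rank 1 of 13557 genes and 0.996 at rank 5358. The next gene in replicate 1 had a ratio of 2.03, so that brm stood apart in that library, and its mean ratio of 2.24 rests on it. Without replicate 1, brm did not reach 1.1.

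The excess at brm did not extend to the genes around it. The genes CG17026, CG17029, CG17028 and CG17027 lie inside the brm transcription unit on the opposite strand and share no exon bases with it. Their ratios in replicate 1 were 0.831, 0.992, 1.03 and 0.956, and those of CG10516 and Arl1, at 180 and 266 bases from brm, were 0.902 and 0.959. In replicate 2 the 6 neighbours had ratios of 0.765 to 0.988. The signal is given per gene, so that its position within brm was not analysed here.

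Snr1 was the only subunit gene with a ratio of at least 1.1 in both replicates, which held for 1.37% of all genes. Its IP signal was 4.64 and 2.87, against 3.18 and 2.57 in the Input, with ratios of 1.46 and 1.12 (ranks 247 and 3235). For osa the IP signal was 6.82 and 5.26, against 4.91 and 4.90 in the Input, with ratios of 1.39 and 1.07. For Bap111 the order of the replicates was the other way round. Its IP signal was 2.18 and 2.56, against 2.09 and 1.80 in the Input, with ratios of 1.04 and 1.42 (ranks 3058 and 928). The mean of Snr1, 1.29 ± 0.242, and those of osa, 1.23 ± 0.223, and Bap111, 1.23 ± 0.267 (SD, n = 2 each), thus exceeded 1.1 by less than their spread.

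The other 6 genes stayed below 1.1 in both replicates. Their ratios in replicates 1 and 2 were 0.860 and 1.04 for mor, 0.951 and 1.01 for Bap55, and 0.951 and 1.01 for Bap60. The PBAP-specific genes had 0.868 and 0.960 for Bap170, 0.866 and 0.913 for polybromo, and 0.934 and 1.07 for e(y)3. The polybromo gene, the called member besides brm, was thus below 1 in both. Of the other complex genes, Act5C had ratios of 2.01 and 1.12. None of 9 remodeling ATPases and none of 13 trithorax group genes reached a mean of 1.1, beside 15.6% of all genes. Mi-2, skd and tna came close, each with a mean of 1.09. The paper lists Hel89B, skd and tna among its BRM target genes, so that a mean just below 1.1 does not show absence of BRM. Act5C belongs to a family of closely similar actin genes, and its reads are less certain.

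No subunit gene differed between IP and Input in limma's test on log2(signal + 0.1), and 0% of the 13557 genes were called. All adjusted p-values of the members were 1, and 6 genes (0.0443%) passed an unadjusted p under 0.05. With the replicate as a block, which joins each IP to its Input, no gene was called either, and 346 genes (2.55%), brm alone among the subunit genes, passed an unadjusted p under 0.05. The difference for brm was 0.88 (95% interval -0.57 to 2.34) and that for Snr1 was 0.34 (95% interval -0.40 to 1.08). Across genes, log2 IP/Input of the 2 replicates had a Pearson correlation of -0.282, and genes are not independent replicates. The ratios of single loci carry this disagreement between replicates.

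**Figure D4:**
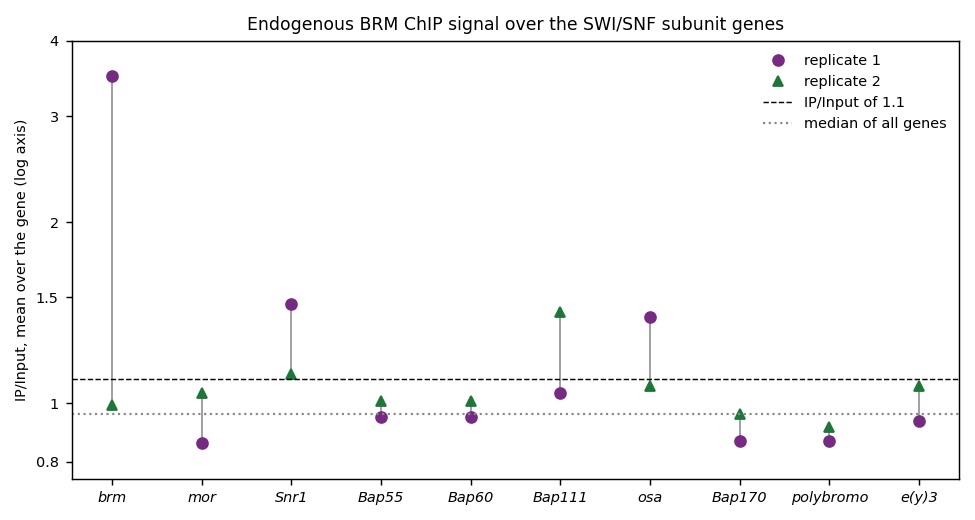
IP/Input of endogenous BRM over each subunit gene on a log axis, with replicate 1 as circles and replicate 2 as triangles joined by a line. The dashed line is the level of 1.1 and the dotted line the median of all genes, 0.962. The brm gene has 3.49 in replicate 1 and 0.996 in replicate 2, and Snr1 is the only gene with both points above the dashed line.

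Of the 4 genes that reached the mean ratio of 1.1, the sequences upstream of brm, osa and Bap111 are shown because the averaged signal includes short flanks of the gene. They are the 200 bases before the annotated gene start, read 5′ to 3′ on the strand of the gene from the BDGP6 assembly. Capitals mark matches to the TATA-box hexamer TATAAA and to the DRE core TATCGATA on either strand. The windows are chr3L:15982870-15983069 on the minus strand for brm, chr3R:17718351-17718550 on the minus strand for osa and chrX:9149109-9149308 on the plus strand for Bap111.
brm: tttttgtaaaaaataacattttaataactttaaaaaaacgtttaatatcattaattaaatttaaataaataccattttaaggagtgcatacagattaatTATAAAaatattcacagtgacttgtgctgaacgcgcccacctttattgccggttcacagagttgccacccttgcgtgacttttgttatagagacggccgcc
osa: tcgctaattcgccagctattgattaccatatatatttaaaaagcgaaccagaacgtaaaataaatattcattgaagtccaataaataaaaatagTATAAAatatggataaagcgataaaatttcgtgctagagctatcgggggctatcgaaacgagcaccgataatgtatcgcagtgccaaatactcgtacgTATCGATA
Bap111: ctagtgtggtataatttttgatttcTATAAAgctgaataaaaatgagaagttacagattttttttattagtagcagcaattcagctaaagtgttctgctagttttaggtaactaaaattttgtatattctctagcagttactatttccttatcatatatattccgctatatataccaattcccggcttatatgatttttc
Counted from the gene start, TATAAA begins at -101 in brm, at -106 in osa and at -175 in Bap111, and TATCGATA at -8 in osa.

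Over the 9 members whose windows were searched, TATAAA was found in 4 windows (brm, mor, osa and Bap111), beside 36.9% of the 13945 promoters of equal length. TATCGATA was found in 3 (mor, osa and Bap170), beside 7.29% of promoters. TCAGT was found in mor only (33.4% of promoters), and CAGCTG (11.5%) and GAGAG (22.1%) in none. Matches were sought on both strands and are a description of these letters, not of factor binding. The genes with and without a mean IP/Input of 1.1 both include windows with TATAAA and with TATCGATA.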

How the data were processed

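The RNA-seq values are counts per gene, deposited by the authors without normalization after mapping of strand-specific poly(A) libraries with TopHat2 and counting with HTSeq. The deposited ChIP-seq values are coverage signal. The authors aligned the reads with Bowtie 2, and ngs.plot gave the mean over each gene, with no depth beside it. The test for this table was left to depend on its unit, and limma was used because it holds signal. The methods name the build as BDGP6 (Dm3), which are different assemblies, and the files hold no coordinates. The upstream window of 1 member is not reported here. Positions and sequences were taken by gene from the BDGP6 annotation and RefSeq, and the annotation named 95.7% of the RNA-seq and 96.1% of the ChIP-seq identifiers.

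The subunit genes and the other lists were chosen with earlier results of these data known. The listed remodeling ATPases kis and Ino80 were not matched to identifiers of the data and are not counted. The same holds for kis among the trithorax group genes. All 10 members are named in every comparison, other lists as counts with values for called genes, and the 5 genes most correlated with brm.

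All 8 libraries were fitted together in edgeR 4.0.16 under R 4.3.3, with TMM factors, filterByExpr, glmQLFit without the robust option, glmQLFTest and no replicate block. Log2 signals were fitted with limma 3.58.1. The SE and 95% intervals come from the F statistic and its degrees of freedom. No member shares exon bases with another gene on its own strand. Replicate counts differed by more than sampling noise in all 4 groups. Alternatives were DESeq2 1.42.0, limma-voom, other scalings, filters and thresholds, fits of the 4 libraries of a comparison, a block for the replicate number and fits that left out each library in turn. For ChIP-seq they were other ratios, limits and pseudocounts. An unadjusted p and a crossed replicate block were added after seeing the data. The tests were tried on simulated data. Python 3.11.15 and matplotlib 3.10.9 were used for tables and plots.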

Additional observations from a re-analysis of the deposited data

Results flagged for a closer look

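The change of brm RNA against control cells differed between the recombinant lines, by 3.33 on the log2 scale (SE 0.28, recBRM-V5 over recBRM-K804R-V5, adjusted p = 0.00126 in edgeR's quasi-likelihood test of the difference itself). Both recBRM-V5 libraries, with 16623 and 24875 CPM, were above both recBRM-K804R-V5 libraries, with 2117 and 2004 CPM. Leaving out each of the 4 libraries in turn gave 3.01 to 3.59.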

How the results depend on the processing

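The 5 calls of brm that involve a recombinant line held under every alternative run, leaving out each library included. In BRM-depleted cells 0 of the 10 subunit genes were called against control cells, but 1, brm, with DESeq2, with only the 4 libraries compared, without the filter on low counts and at an unadjusted p under 0.05. In recBRM-V5 cells against control cells 1 was called, but 2 at an adjusted p under 0.1 or with library size only, the addition being polybromo (adjusted p = 0.0372 with library size only), and 3 at an unadjusted p. In recBRM-K804R-V5 cells against control cells it was 1, and 2 at an unadjusted p. Against BRM-depleted cells the 2 calls in each recombinant line became 1 at an adjusted p under 0.01, for recBRM-V5 cells also with only the 4 libraries compared, and leaving out a library gave 1 to 2 for recBRM-V5 and 1 for recBRM-K804R-V5 cells. Without the filter on low counts, edgeR also called Snr1 in recBRM-K804R-V5 against BRM-depleted cells (adjusted p = 0.0402). Between the recombinant lines 1 was called, and 2 at an unadjusted p.

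RNA-seq replicates of the same number deviated together between recBRM-V5 and control cells (r = 0.660) and between recBRM-K804R-V5 and BRM-depleted cells (r = 0.262) and in opposite directions in the other 4 comparisons (r of -0.356 to -0.287). The labels give the number no further meaning, and it was not taken as a pairing. With the replicate block, 1 subunit gene in place of 2 was called in recBRM-K804R-V5 against BRM-depleted cells (polybromo, adjusted p = 0.0630), and the counts of the other 5 comparisons were as without it. A crossed replicate block, with the numbers of the BRM-depleted and recBRM-K804R-V5 libraries swapped after seeing the data, called 4 subunit genes in recBRM-V5 and 2 in recBRM-K804R-V5 cells against control cells, 2 and 3 against BRM-depleted cells, and 3 between the recombinant lines. IP and Input of the same number deviated together in the ChIP-seq signal (r = 0.691), and with the block no gene was called there either.

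Signs turned only among genes that were not called. Leaving out each library in turn gave, against control cells, -0.84 to 0.041 for e(y)3 under BRM depletion. With recBRM-V5 the ranges were -0.26 to 0.20 for osa, -0.87 to 0.053 for Snr1, -0.090 to 0.026 for Bap55, -0.25 to 0.19 for Bap170 and -0.97 to 0.42 for e(y)3. In recBRM-K804R-V5 cells it gave -0.12 to 0.67 for Snr1, -0.065 to 0.24 for Bap60, -0.43 to 0.082 for Bap111, -0.21 to 0.0017 for Bap170 and -0.33 to 0.51 for e(y)3. Against BRM-depleted cells the recBRM-V5 ranges were -0.35 to 0.62 for Snr1, -0.32 to 0.35 for Bap111, -0.085 to 0.36 for Bap170 and -0.51 to 0.88 for e(y)3. In recBRM-K804R-V5 cells they were -0.049 to 0.11 for osa, -0.19 to 0.11 for Bap55 and -0.010 to 0.15 for Bap170. Between recBRM-V5 and recBRM-K804R-V5 cells they were -0.16 to 0.28 for Bap170, -0.11 to 0.068 for polybromo and -1.02 to 0.37 for e(y)3. With library size only, which moved the median of all genes by up to -0.11, e(y)3 turned to -0.0025 in recBRM-K804R-V5 against control cells, Bap111 to -0.052 in recBRM-V5 and osa to -0.033 in recBRM-K804R-V5 against BRM-depleted cells. This osa value was -0.006 with RLE scaling, -0.0059 with only the 4 libraries compared and -0.0061 with DESeq2. The causes were not tested.

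Of the 4 subunit genes with a mean IP/Input of at least 1.1, 1 reached it in both replicates, and leaving out a replicate gave 2 to 3. The log2 IP/Input of e(y)3 turned to -0.0016 with a pseudocount of 1. The lowest count of any subunit gene in any library was 186, for Snr1.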
